A study of Rattus norvegicus with 28 samples.

Results

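The spots described here are the 240 of middle brightness among 1185 on a cDNA array of rat soleus muscle. They were chosen by their rank: the deposited values of each spot were averaged over all 28 arrays, and ranks 51 to 290 from the brightest were kept. The values that chose them are therefore their mean levels, which are given as a description only. The study compared soleus muscles of 3-month-old female Wistar rats in 4 groups of 7 arrays. Control rats were kept in cages and carry the label of a 14-day age control. Suspended rats had their hindlimbs unloaded for 14 days. The ALCAR suspended rats were unloaded for 14 days and received acetyl-L-carnitine (ALCAR). The ALCAR control rats received it without suspension, and their labels state no number of days. The labels give neither dose nor route nor length of the ALCAR treatment. The series' design text lists 21 samples in 3 groups, without the ALCAR controls, whereas the labels of 28 samples give all 4 groups. RNA came from pooled 25 µm cryostat sections of the muscle, and 3 µg was labelled with P32 for each array. The labels number the untreated rats and letter the ALCAR rats, and they state no batch, so any difference in handling between these rats and ALCAR itself cannot be told apart.

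The soleus is a slow, oxidative postural muscle of the hindlimb that carries load through most of a rat's day. Unloading is known to cause atrophy of this muscle and a shift from slow towards fast fibre properties. In skeletal muscle, transcripts of contractile proteins and of energy metabolism make up much of the messenger RNA, and most enzymes, receptors and signalling proteins have transcripts of lower abundance. Acetyl-L-carnitine is an acetylated form of carnitine, the carrier that takes long-chain fatty acids into mitochondria for oxidation. The files name spots by number, and 0 of the 1185 spot numbers matched an entry of the gene table used here, so no gene name, function or sequence is given. For the same reason the labelled tissue could not be checked against marker genes.

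Each value is a spot's share of its array's summed intensity, given here in ppm of that sum. A spot's brightness depends on its probe as well as on its transcript, so the ranks are ranks of signal, and "moderately abundant" describes the signal. In whole muscle, fewer cells of a type and less RNA per cell cannot be told apart. The members' means over 28 arrays ran from 604 to 1900 ppm, with a median of 838 ppm. 164 of the 240 lay under 1000 ppm. The faintest signal of an array, taken as the 5th percentile of its spots, averaged 300.3 ppm over the arrays and ran from 186 to 507 ppm. All 240 members lay above 2 times the average of that floor by their overall mean, and 184 did so by the mean of every group. The upper edge of the range fell between spot R083 at rank 50, with 1979 ppm, and RG011 at rank 51, with 1900 ppm. At the lower edge, RG143 at rank 290 had 603.6 ppm and R427, the next spot, had 603.2 ppm. The ranks around both edges thus differed by little.

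**Figure D1:**
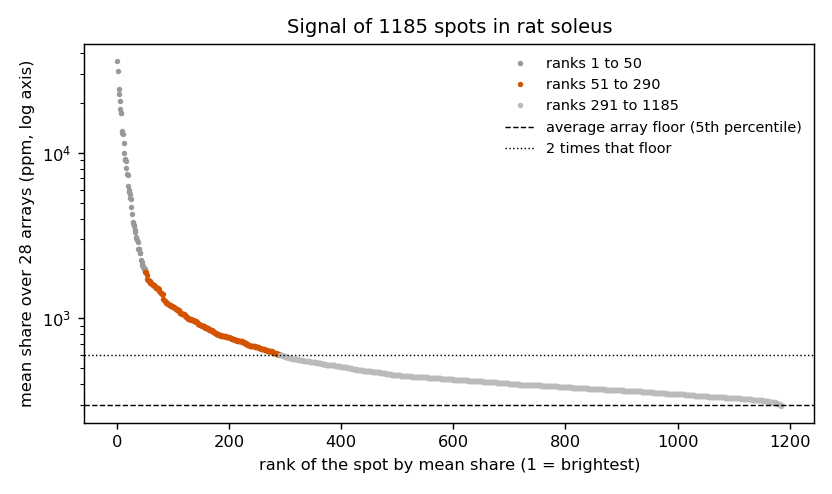
Mean share over 28 arrays (ppm, log axis) of each of the 1185 spots against its rank, with ranks 51 to 290 in orange. The dashed line is the average array floor of 300.3 ppm and the dotted line is 2 times that floor, which the orange spots approach at rank 290.

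Most members kept a rank in the range by group mean, and few did so on every array. Each group and array is part of the mean that chose the members, so these counts are a description only. By the mean of one group alone, 209 members kept a rank of 51 to 290 in the controls, 215 in the suspended rats, 221 in the ALCAR controls and 214 in the ALCAR suspended rats. The count for all 4 groups was 172. On single arrays, 26 members held such a rank on all 28 arrays and 173 on 20 or more, and the median member did so on 23. Leaving out 1 array and ranking again kept between 234 and 240 members, the fewest without control 4. By spot number, 156 members carry the prefix R and 84 the prefix RG, which is 22.2% of the 702 R spots and 17.4% of the 483 RG spots.

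The summed signal of the members took a steady share of the array. In the controls the summed share had a lowest value of 20.4%, a median of 23.2% and a highest value of 26.7%. The suspended arrays ran from 22.3% through 22.8% to 23.4%, the ALCAR controls from 20.8% through 21.7% to 22.6%, and the ALCAR suspended arrays from 21.3% through 22.8% to 24.2%. All 4 groups overlapped. The 50 brightest spots varied more, with a range of 24.3% to 54.2% over the arrays. ALCAR control O and ALCAR suspended H, where these spots took the smallest shares, 25.8% and 24.3%, had the highest floors, 477 and 507 ppm. The number of members above 2 times the floor of their own array had a lowest value of 62, a median of 225 and a highest value of 235 in the ALCAR controls, and 66, 213 and 233 in the ALCAR suspended rats. The corresponding numbers were 117, 197 and 224 in the controls and 145, 220 and 236 in the suspended rats.

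**Figure D2:**
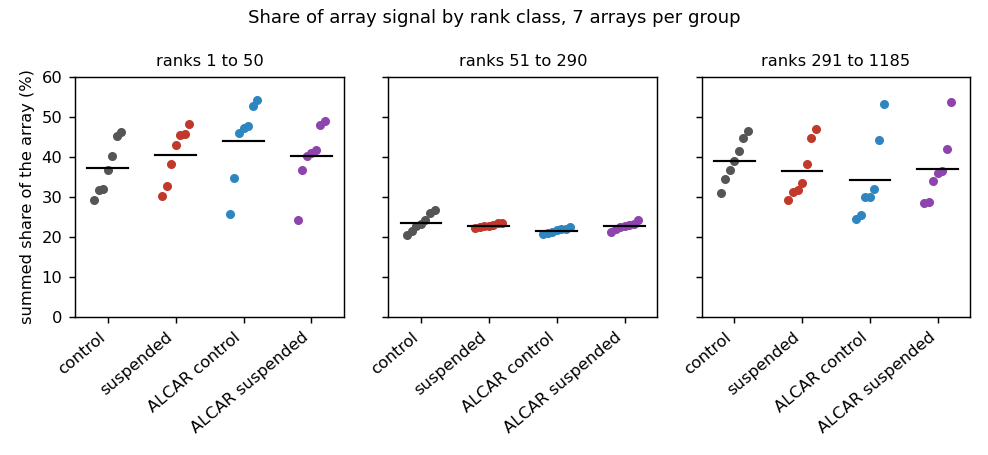
Summed share of the array signal (%) by rank class, 1 dot per array in each of the 4 groups of 7, with the group mean as a line. The members, ranks 51 to 290, lie between 20.4% and 26.7% on every array, while the 50 brightest spots range from 24.3% to 54.2%.

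Spread between arrays of a group was moderate. It was measured on the shares in ppm, before any normalisation between arrays. The coefficient of variation within groups, averaged over the 4 groups, had a median of 22.2% among members and ran from 9.04% to 54.2%. The same measure had a median of 30.2% for the 50 brightest spots and of 27.8% for the fainter spots. RG347 was the steadiest member by this measure, with 684 ± 65.9 ppm in the controls and 717 ± 49.5 ppm in the suspended rats. It had 731 ± 62.6 ppm in the ALCAR controls and 883 ± 97.4 ppm in the ALCAR suspended rats (SD, n = 7 in each). R151 came next at 9.18%, with 741 ± 83.6, 709 ± 54.8, 734 ± 45.9 and 892 ± 102 ppm in the same order. Both of these steady spots had their highest mean in the ALCAR suspended rats. In the tests described below, both passed between ALCAR suspended and control rats. Their log2 differences were 0.31 and 0.24 (limma adjusted p = 0.00904 and 0.0351). Steady here thus means a low spread within groups and not equal levels between groups. On the normalised scale used for those tests, RG413 had a smaller SD than RG347 in every group. R008 was among the most variable members at 54.0%: its means ran only from 1344 to 1731 ppm, but single arrays ran from 579 to 3451 ppm. Its 4 groups overlapped over most of their ranges.

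R609, the most variable member at 54.2%, owed its spread to a pair of arrays. It gave 10564 ppm in suspended 4 and 13947 ppm in suspended 5. The other 5 suspended arrays lay between 495 and 719 ppm, at 616 ± 92.3 ppm (SD, n = 5), and every array of the other groups was at most 1294 ppm. Without suspended 4 and 5 it stood at rank 202 in place of 66. Those arrays were the only pair of one group to share spots above 3 times the group median: 5 members and 2 of the 50 brightest spots did so there, and 0 spots did in any other pair. In all, 20 members (8.33%) exceeded 3 times their group's median on at least 1 array, against 12% of the 50 brightest spots and 1.90% of the fainter spots. Suspended 5 held 8 of these members, suspended 4 held 6 and control 4 held 5. Results that involve the suspended or control rats are therefore also given without these arrays. The means of 234 members still ranked 51 to 290 without suspended 4 and 5.

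Differences between groups were tested on the log2 scale after a constant of 335 ppm was added to each share and the arrays were brought to one distribution. A log2 difference below is on that scale and understates the change of faint spots, while a fold is the ratio of the mean shares with no floor subtracted. A spot passed where limma's p-value, adjusted by Benjamini-Hochberg over all 1185 spots, was under 0.05. The labels do not say whether each array holds the RNA of 1 rat or of several, so the p-values measure the spread between these samples. The 95% interval of a member's difference between a pair of groups had a median half-width of 0.26, against 0.39 for the 50 brightest spots and 0.12 for the fainter spots. The added constant narrows these intervals most for faint spots, so the widths do not rank the precision of the shares. A bound of 0.5 used below likewise stands for a larger change in the share of a faint spot.

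Unloading without ALCAR is the first comparison. Of the 240 members 12 passed, 5 higher and 7 lower in the suspended rats, which is 5% of members against 6.08% of all spots (72 of 1185, with 2.62% higher and 3.46% lower). The share among the members was thus close to that of the array. The median difference was -0.0032 over all members and -0.0036 over all spots. Among the 12 that passed, the size of the difference had a median of 0.52 and was at least 0.27. By unadjusted p under 0.05, 24 members were higher and 21 lower, which is 18.8% of members. Over all spots it was 22.6%, 125 higher and 143 lower. For 165 of the 240 the 95% interval lay wholly between -0.5 and 0.5.

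RG026 and R145 had the smallest p-values among members that rose with suspension. Their place among the members rests in part on the arrays where they are high, since the rule averages all 28 arrays. R145 ranked 312 to 782 on the control arrays and 306 to 793 on the ALCAR control arrays. RG026 ranked 280 to 1055 on the control arrays. The same can hold for other members near the lower edge of the range. RG026, at rank 246, gave a lowest, median and highest share of 389, 471 and 639 ppm in the controls and 350.0, 894 and 1507 ppm in the suspended rats. One suspended array lay below every control, and the groups overlapped; in 44 of 49 pairs of arrays the suspended one was higher on the normalised scale. The mean rose 1.81-fold, from 505 ± 94.0 to 915 ± 353 ppm (SD, n = 7), a log2 difference of 0.56 with a standard error of 0.12 (limma adjusted p = 0.00617, exact permutation p = 0.00699, two-sided and unadjusted). R145, at rank 182, gave 315, 483 and 638 ppm in the controls and 578, 938 and 2243 ppm in the suspended rats. Suspended 3 and 6, at 2047 and 2243 ppm, stood above the other suspended arrays. All 49 pairs were higher in the suspended rats on the normalised scale and 47 of 49 in ppm, so R145 was the 1 member whose groups did not overlap in this comparison; 1.77% of all spots had groups that did not overlap. Its mean rose 2.41-fold, from 483 ± 97.2 to 1163 ± 698 ppm (SD, n = 7), a log2 difference of 0.81 with a standard error of 0.21 (limma adjusted p = 0.0180, exact permutation p = 0.000583, the smallest that 7 against 7 arrays allow).

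RG413 and RG011 led the members that fell. RG413, at rank 283, had a lowest, median and highest share of 559, 758 and 873 ppm in the controls and 482, 543 and 638 ppm in the suspended rats. The lowest control overlapped the suspended arrays and the other controls lay above them. The mean of RG413 fell from 748 ± 102 to 557 ± 59.0 ppm (SD, n = 7), a 1.34-fold difference and -0.27 on the log2 scale with a standard error of 0.062 (limma adjusted p = 0.00677, exact permutation p = 0.00175). RG011, the brightest member, had 1700, 2729 and 4852 ppm in the controls and 655, 1293 and 2049 ppm in the suspended rats. In 46 of 49 pairs in ppm the suspended array was the lower one. Its mean fell 2.06-fold, from 2931 ± 1039 to 1425 ± 493 ppm (SD, n = 7), with a log2 difference of -0.83 and a standard error of 0.20 (limma adjusted p = 0.0120, exact permutation p = 0.00117).

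These counts rested on the choice of arrays and on the scaling. Fitted on the 14 arrays of these groups alone, 0 members passed with limma, with 37 at an unadjusted p under 0.05. Among all spots 24 passed in that fit, against 72 in the analysis reported. The adjusted p of RG026, RG011, R145 and RG413 was then between 0.0567 and 0.0606. Over all alternatives it ran from 0.000279 to 0.0567 for RG026, from 0.0035 to 0.0582 for RG011 and from 0.00892 to 0.0744 for R145, whose highest value came without control 2 and 4. Without those controls 6 members passed, 5 of them among the 12 reported. Without suspended 4 and 5, 15 members passed, 8 of them among those 12. With members chosen by the mean share of the groups not compared, 11 passed, 5 higher and 6 lower, 10 of them among those 12. Leaving out 1 array gave 5 without control 2, 7 without control 4, 7 without control 7, 6 without suspended 3 and 22 without control 9; the higher calls ranged from 2 to 9 and the lower from 3 to 14 with 1 array left out. Centring the arrays on the bright spots in place of quantile normalisation gave 6, of which 4 were higher and 2 lower. RG413 kept log2 differences of -0.24 with that centring and -0.28 without normalisation but did not pass (adjusted p = 0.416 and 0.0964), and its adjusted p over all alternatives ran from 0.00189 to 0.416.

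**Figure D3:**
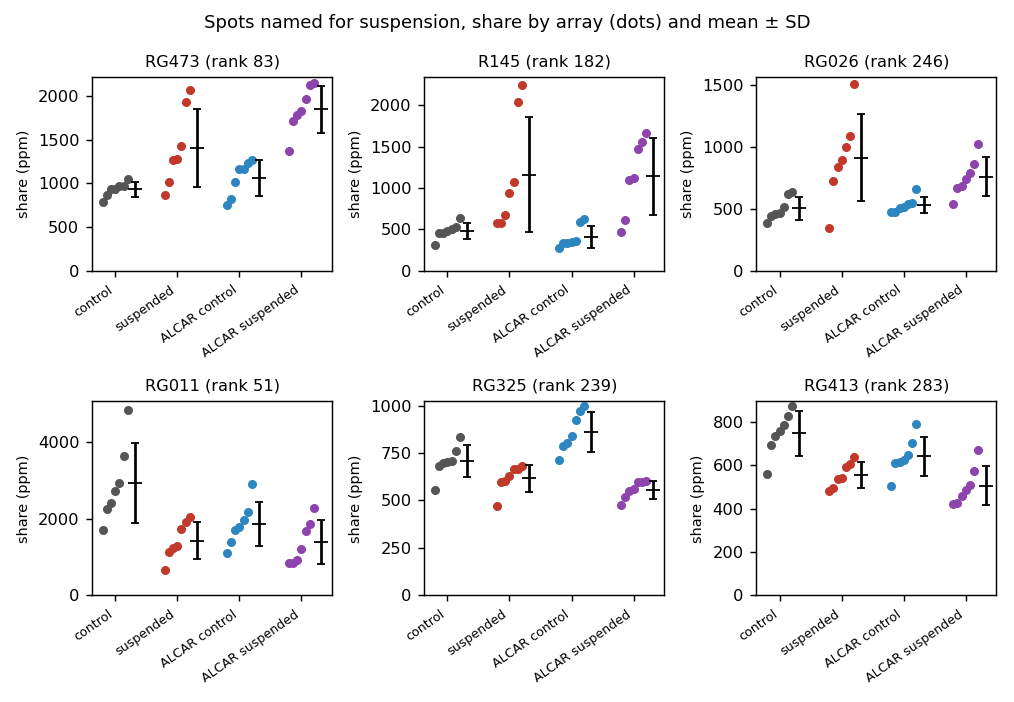
Shares (ppm) of 6 members named for the effect of suspension, 1 dot per array in 4 groups of 7, with mean ± SD beside the dots. R145 is higher and RG413 lower in both suspended groups than in their controls. RG473 is higher and RG325 lower in ALCAR suspended than in ALCAR control rats. RG026 is higher and RG011 lower in suspended than in control rats. Between the ALCAR groups RG026 and RG011 had the same sign without passing (log2 differences 0.33 and -0.43), and both passed between ALCAR suspended and control.

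The second comparison asks the same of rats that received ALCAR, and it shares no array with the first. Of the 240 members 13 passed, 6 higher and 7 lower in the ALCAR suspended rats, which is 5.42% of members against 4.05% of all spots (48 of 1185, with 1.86% higher and 2.19% lower). The median difference over all members was 0.01 and over all spots 0.00. Among the 13, the size had a median of 0.47 and ran from 0.30 to 0.90. On the normalised scale, groups did not overlap for 5 members, 1 higher and 4 lower, against 2.36% of all spots. By unadjusted p under 0.05, 26 members were higher and 26 lower, which is 21.7% of members. Over all spots it was 19.8%, 123 higher and 112 lower.

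RG473 rose, with a lowest, median and highest share of 751, 1166 and 1267 ppm in the ALCAR controls and 1370.1, 1828 and 2148 ppm in the ALCAR suspended rats. Every ALCAR suspended array lay above every ALCAR control in ppm and on the normalised scale. The mean rose 1.74-fold, from 1061 ± 203 to 1849 ± 269 ppm (SD, n = 7), a log2 difference of 0.65 with a standard error of 0.13 (limma adjusted p = 0.00281, exact permutation p = 0.000583). R145 rose here too, from 407 ± 137 to 1143 ± 464 ppm (SD, n = 7), with 273, 350.3 and 621 ppm in the ALCAR controls and 466, 1120 and 1666 ppm in the ALCAR suspended rats. ALCAR suspended I and P, at 466 and 617 ppm, lay within the range of the ALCAR controls and the other 5 above it. The log2 difference of R145 was 0.90 (limma adjusted p = 0.00893, exact permutation p = 0.00117).

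RG325 fell, with 713, 838 and 995 ppm in the ALCAR controls and 477, 561 and 602 ppm in the ALCAR suspended rats. The groups were fully apart in ppm. The means were 862 ± 104 and 557 ± 47.2 ppm (SD, n = 7), a 1.55-fold difference and -0.47 on the log2 scale with a standard error of 0.084 (limma adjusted p = 0.000711, exact permutation p = 0.000583). RG413 fell from 643 ± 89.3 to 507 ± 89.1 ppm (SD, n = 7), or -0.31 on the log2 scale, with all 49 pairs in that direction after normalisation and 42 of 49 in ppm (limma adjusted p = 0.00315, exact permutation p = 0.000583). RG413 did not pass without normalisation, at -0.22 (adjusted p = 0.292), or with centring on the bright spots, at -0.25 (adjusted p = 0.451), within a range of 0.000546 to 0.451 over the alternatives. The calls of RG473, R145 and RG325 in this comparison held in every alternative run, single arrays left out included. Counts of members moved to 20 with only the 14 arrays of these groups, 20 with only ranks 1 to 290 fitted, and ran from 9 to 18 with 1 array left out. The split moved more than the total: it was 2 higher and 10 lower without ALCAR control O, 3 and 7 without ALCAR suspended H, and 3 and 6 without ALCAR suspended L.

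Set side by side, the comparisons shared 3 members past the threshold, all in the same direction: R145 rose in both, and RG413 and R256 fell in both. They are 25% of the first list and 23.1% of the second. This overlap was not counted among all spots that passed, nor were the signs of those spots. The values for passing members are therefore not read as particular to the members. R256 falls outside the rule for naming spots and was named after its values were seen, because the shared list holds only 3; its log2 difference was -0.49 without ALCAR (limma adjusted p = 0.0220) and -0.45 with it (limma adjusted p = 0.0470), from 1128 ± 316 to 687 ± 153 ppm and from 1275 ± 324 to 856 ± 148 ppm (SD, n = 7). All 12 members that passed without ALCAR had the same sign with it, where their median difference in the direction of the first comparison was 0.32 against 0.52. RG026 and RG011 were among them, at 0.33 and -0.43 with ALCAR (limma adjusted p = 0.130 and 0.229). Of the 13 that passed with ALCAR, 12 had the same sign without it, at a median of 0.16 against 0.47. RG262 was the exception. Each list was picked for large differences in its own comparison. That choice alone can make the median smaller in the other one, so these medians are not read as an effect of ALCAR. Among all 240 members, 170 (70.8%) had the same sign in both comparisons, against 701 of the 1185 spots (59.2%). The 1185 include the members and 895 fainter spots, and the 50 brightest were not counted apart. Neither this difference nor the correlations that follow are therefore read as particular to the members. Across members, which are not independent replicates, Pearson's r between the differences was 0.49 and Spearman's rho 0.49, against 0.54 and 0.29 across all spots; both comparisons share the normalisation and 1 estimate of the spread per spot.

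**Figure D4:**
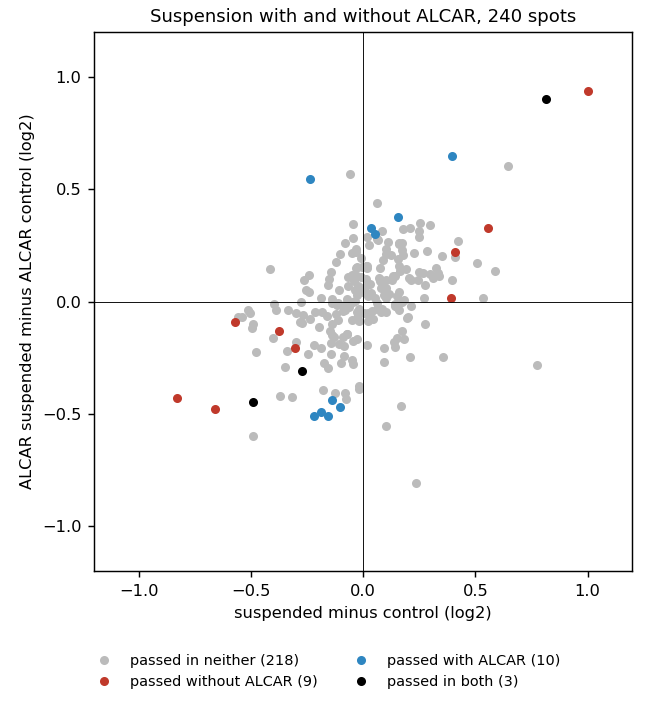
Log2 difference of each of the 240 members with suspension, without ALCAR (horizontal) and with ALCAR (vertical), coloured by where the adjusted p was under 0.05. The 3 black spots passed in both comparisons, and 170 of the 240 lie in the quadrants where both differences have the same sign.

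A difference between these effects of suspension is the interaction of suspension and ALCAR. None of the 240 members passed with limma, as none of all 1185 spots did (0%). At an unadjusted p under 0.05 were 19 members (7.92%), 8 with a higher and 11 with a lower effect under ALCAR. Over all spots it was 14.3%, 85 higher and 84 lower. The precision was lower here, with a median half-width of 0.37 for the 95% interval, and for 108 members it lay within -0.5 to 0.5. RG262 had the smallest p among members with a higher effect under ALCAR, an interaction of 0.79 (95% interval 0.36 to 1.21, limma adjusted p = 0.0904). RG325 had the smallest in the other direction, -0.37 (95% interval -0.61 to -0.12, limma adjusted p = 0.170). RG325 had 706 ± 83.9 ppm in the controls and 616 ± 71.0 ppm in the suspended rats (SD, n = 7), so its difference without ALCAR was -0.10 (limma adjusted p = 0.489). With arrays weighted by their quality, 4 members passed the interaction, RG262 and RG325 among them, each at an adjusted p of 0.0254. Over all alternatives the adjusted p ran from 0.00277 to 0.634 for RG262 and from 0.0254 to 0.998 for RG325.

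Suspended rats with and without ALCAR were compared directly. Of the 240 members 3 passed, all higher with ALCAR, against 1.94% of all spots (23 of 1185, with 0.759% higher and 1.18% lower). By unadjusted p under 0.05, 27 members were higher and 9 lower, which is 15% of members. Over all spots it was 19.7%, 127 higher and 107 lower. RG262, at rank 73, gave a lowest, median and highest share of 685, 1166 and 1635 ppm in the suspended rats and 1243, 2428 and 2755 ppm in the ALCAR suspended rats. ALCAR suspended E and H, at 1273 and 1243 ppm, lay within the range of the suspended rats, and the other 5 lay above it. The mean was 1217 ± 328 ppm without and 2132 ± 641 ppm with ALCAR (SD, n = 7), a 1.75-fold rise and 0.68 on the log2 scale with a standard error of 0.15 (limma adjusted p = 0.00927, exact permutation p = 0.00175). The controls of RG262 had 1461 ± 235 ppm and the ALCAR controls 1268 ± 302 ppm, so its ALCAR suspended mean was the highest of the 4.

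R129 and RG430 were the other members higher with ALCAR in suspended rats; RG430 falls outside the rule for naming spots and was named after its values were seen, because only 3 passed. R129, at rank 249, had 459, 637 and 698 ppm in the suspended rats and 745, 837 and 929 ppm in the ALCAR suspended rats. Its groups were fully apart in ppm and on the normalised scale, where this held for 1 member and for 0.928% of all spots. The means of 604 ± 86.4 and 829 ± 67.2 ppm (SD, n = 7) gave a log2 difference of 0.32 with a standard error of 0.077 (limma adjusted p = 0.0285, exact permutation p = 0.000583). The controls and ALCAR controls of R129 had 635 ± 73.8 and 622 ± 66.1 ppm, and their highest arrays, at 736 and 713 ppm, also lay below every ALCAR suspended array. RG430 had 636 ± 117 and 863 ± 127 ppm (SD, n = 7), a log2 difference of 0.33 (limma adjusted p = 0.0421). No member passed this comparison without normalisation, with centring on the bright spots or with only its 14 arrays fitted. In these fits 32, 28 and 35 members had an unadjusted p under 0.05 with limma. Among all spots 2, 2 and 0 passed there. Over all alternatives the adjusted p ran from 0.000573 to 0.109 for RG262 and from 0.00666 to 0.604 for R129. Without suspended 4 and 5, 2 members passed, and 1 of them was among the 3 reported. R129 did not pass there (limma adjusted p = 0.0597), nor without ALCAR suspended D, E or H (limma adjusted p = 0.0569, 0.0580 and 0.0526). Leaving out 1 array gave 1 without ALCAR suspended D or H, 5 without control 5 or suspended 3, 6 without control 9, suspended 6 or ALCAR control O, and 9 without suspended 2.

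ALCAR alone was compared in rats that were not suspended. None of the 240 members passed with limma, against 0.0844% of all spots (1 of 1185). At an unadjusted p under 0.05, 11 members were higher and 12 lower, which is 9.58% of members. Over all spots it was 15.4%, 75 higher and 107 lower. For 177 of the 240 the 95% interval lay within -0.5 to 0.5. The median difference was 0.04 with quantile normalisation and -0.05 without normalisation, when the median of all spots was -0.10, so its sign depended on the scaling. The smallest adjusted p among members belonged to R218, at a log2 difference of -0.71 (limma adjusted p = 0.0744). With array weights 12 members passed, 14 without the 5 arrays of lowest weight and 6 with the array median share as a covariate. Among all spots 43, 43 and 49 passed there. The covariate was chosen after the data were seen. Counts changed to 2 without suspended 5 or without suspended 4 and 5, and to 1 without control 9 or control 10. All arrays share the normalisation and the estimate of the spread.

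The ALCAR suspended rats and the untreated controls differ in suspension and in ALCAR at once. This comparison had the most calls: 36 members passed, 26 higher and 10 lower, which is 15% of members against 12.8% of all spots (152 of 1185), a share close to that of the array. In the higher direction the background was 7% of all spots and in the lower direction 5.82%. Among the 36, the size had a median of 0.38 and ran from 0.24 to 0.92. The 26 higher members had a median of 0.38 here, 0.17 between suspended and control, 0.10 between ALCAR control and control, 0.29 between the ALCAR groups and 0.25 between the suspended groups. The 10 lower members had -0.37 here, -0.34 between suspended and control, -0.23 between ALCAR control and control, -0.21 between the ALCAR groups and -0.06 between the suspended groups. These comparisons share arrays, so the medians are only set beside each other. Of the 26, 4 had also passed between suspended and control and 6 between the ALCAR groups; of the 10, 4 and 2 had.

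RG473 again led the members that rose, from 792, 934 and 1056 ppm in the controls to 1370.1, 1828 and 2148 ppm in the ALCAR suspended rats. On the normalised scale it was the 1 member whose groups did not overlap, against 2.87% of all spots; in ppm the groups of R129 were apart as well. Its mean rose 1.98-fold from 933 ± 83.7 ppm (SD, n = 7), a log2 difference of 0.80 (limma adjusted p = 0.000165, exact permutation p = 0.000583). The suspended rats had 1410.0 ± 446 ppm, with a log2 difference to the controls of 0.39 that did not pass (limma adjusted p = 0.0620). R494, at rank 264, had 430.2, 536 and 709 ppm in the controls and 629.9, 752 and 1182 ppm in the ALCAR suspended rats. Its groups overlapped at their edges, and its log2 difference was 0.49 (limma adjusted p = 0.00607, exact permutation p = 0.00117).

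Among the members that fell, RG413 had a log2 difference of -0.35 (limma adjusted p = 0.000668, exact permutation p = 0.00117), to 507 ± 89.1 ppm from the 748 ± 102 ppm of the controls. R218, at rank 154, had 535, 1217 and 3016 ppm in the controls and 416, 537 and 874 ppm in the ALCAR suspended rats. Control 4 and control 2, at 3016 and 2330.4 ppm, were the highest, and control 9 and 10, at 535 and 776 ppm, lay within the ALCAR suspended range. The means were 1575 ± 915 and 600.0 ± 165 ppm (SD, n = 7), a 2.63-fold difference and -0.80 on the log2 scale (limma adjusted p = 0.00285, exact permutation p = 0.00466). Without control 2 and 4 the controls of R218 had 1136 ± 594 ppm (SD, n = 5), and its call held in every alternative run. R218 also passed between suspended and control, at -0.57 (limma adjusted p = 0.0349), and its suspended rats had 770 ± 142 ppm against 646 ± 169 ppm in the ALCAR controls, so the untreated controls were the highest of the 4 groups.

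Control 2 and 4 had the highest summed shares of members, 25.9% and 26.7%, and the counts of this comparison moved with them. Without both, 12 members passed, 5 higher and 7 lower, and 8 of them were among the 36 of the analysis reported. Leaving out 1 array gave 18 without control 4, 20 without control 2, 23 without control 6, 21 without ALCAR suspended L and 23 without ALCAR suspended R. Without normalisation 9 members passed, 4 higher and 5 lower, and with centring on the bright spots 7 did, 3 higher and 4 lower. The higher calls thus outnumbered the lower ones in the analysis reported, and did not with either of these scalings or without control 2 and 4. With 1 array left out the higher calls ranged from 12 to 30 and the lower from 5 to 20. R494 had log2 differences of 0.41 and 0.42 with these scalings and did not pass (adjusted p = 0.0827 and 0.120, within a range of 0.000728 to 0.120). RG413 had -0.35 with the centring and did not pass there (adjusted p = 0.0756, range 0.000098 to 0.0756). The part of scaling and of these arrays in the counts was not tested further.

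Over the 5 comparisons between groups, 44 of the 240 members passed at least once and 196 (81.7%) in none. Of the 44, 27 passed in 1 comparison, 14 in 2 and 3 in 3. These totals were not counted over all spots, so they are not read as particular to the members. In the plot of the 44 members across comparisons, most of the passes lie in the column of ALCAR suspended against control. The column of ALCAR control against control has none.

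**Figure D5:**
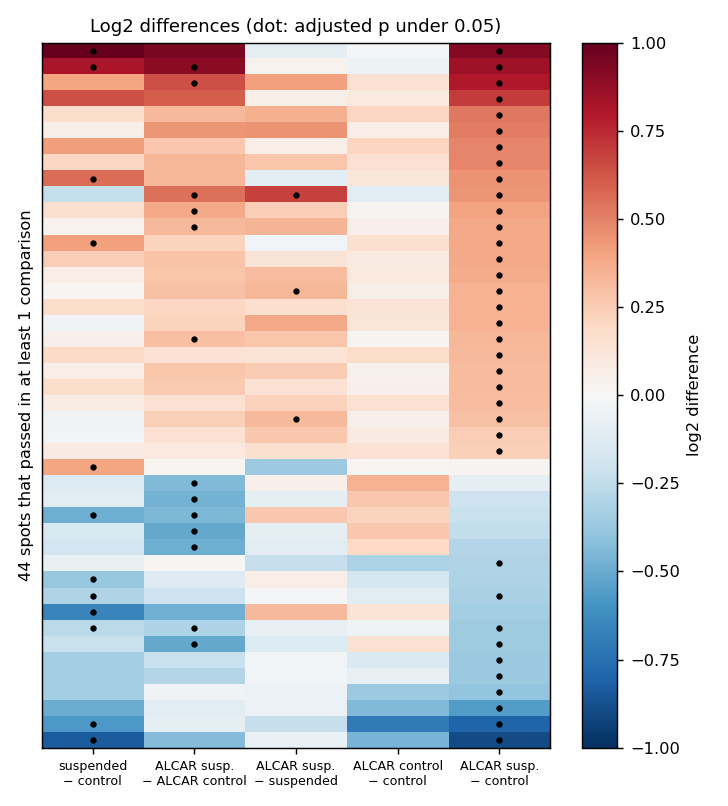
Log2 differences (colour) of the 44 members that passed in at least 1 comparison, 1 row per spot and 1 column per comparison, with a dot where the adjusted p was under 0.05. The fifth column, ALCAR suspended minus control, holds 36 dots and the fourth, ALCAR control minus control, holds none.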

How the data were processed

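The authors deposited 1 table of linear intensity values, in which each column sums to 1 over its spots, so a value is a share of the array's summed intensity (from the values). How images were quantified and background was treated is not given in the sources used here. All 28 columns carry a sample's label. With R 4.3.3 and limma 3.58.1, shares were transformed as log2(share + 335 ppm), the constant being the lower quartile of all deposited values, and quantile normalised. lmFit and eBayes with a trend were fitted to all 1185 spots and 28 arrays in 4 groups, with Benjamini-Hochberg adjustment over all spots and a threshold of 0.05. Exact permutation tests of single spots were two-sided and unadjusted. The calculation was tested on simulated data. Those data had independent noise for each spot and no differences in floor or scaling between arrays. The simulation therefore cannot show how well the normalisation handles the real arrays. No count depth exists for arrays, so the number of arrays limits precision.

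Spots named are, per comparison, the 2 passing members with the smallest p in each direction, the smallest p in each direction of the interaction, the spots at both edges, and the 2 steadiest and 2 most variable members. RG430, R256 and the spots high in both suspended 4 and 5 were named outside this rule. The members and lists were chosen with earlier results of these data known. Gene and marker lists could not be used without gene names. The alternatives changed the constant, the normalisation, the spots or arrays fitted, the weights, the trend and the rule of membership.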

Additional observations from a re-analysis of the deposited data

Results flagged for a closer look

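In 3 of the 72 groups of 7 arrays examined, for the named spots and the members' summed share, 1 array lay far from the rest by Dixon's criterion; chance alone gives about 1 in 20, or 3.6 of 72. RG026 had 657.6 ppm in ALCAR control O, and the next highest ALCAR control had 545 ppm. RG325 had 472.6 ppm in suspended 4, and the next lowest suspended array had 597 ppm. RG347 had 679.2 ppm in ALCAR suspended E, and the next lowest ALCAR suspended array had 866 ppm.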

How the results depend on the processing

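For suspended against control, 12 members passed in the analysis reported and 6 without normalisation, 6 with centring on bright spots, 0 with only these groups fitted, 33 with array weights, 6 without control 2 and 4, 36 without the 5 arrays of lowest weight and 21 with the array median share as a covariate, an alternative chosen after the data were seen. With the shared rat numbers as a replicate block, 19 passed. The correlations of same-numbered rats' deviations were 0.03, 0.05, 0.07, 0.26 and -0.01, and no array correlated best with its own number. The labels state no pairing, and so few pairs cannot show whether these rats share more than a number. Leaving out 1 array gave 5 to 22. For the ALCAR groups, 13 became 20 with ranks 1 to 290 fitted alone, 20 with only these groups, 41 with weights and 25 with the covariate; 1 array left out gave 9 to 18. For ALCAR suspended against suspended, 3 became 0 without normalisation, 0 with centring, 5 with 4 times the constant, 1 with ranks 1 to 290 alone, 6 without the trend, 0 with only these groups, 13 with weights and 12 with the covariate; 1 array left out gave 1 to 9. For ALCAR control against control, 0 became 12 with weights, 2 without suspended 4 and 5, 14 without the 5 arrays of lowest weight and 6 with the covariate; 1 array left out gave 0 to 2. For ALCAR suspended against control, 36 became 9 without normalisation, 7 with centring, 77 with weights, 12 without control 2 and 4 and 71 without the 5 arrays of lowest weight; 1 array left out gave 18 to 50. The interaction had 0, which became 4 with weights and 1 with the covariate, and 0 to 0 with 1 array left out; without normalisation the median interaction of all spots shifted to 0.12. Counts over all spots moved as well, so these changes are not read as particular to the members. With weights, 72 became 149 for suspended against control, 48 became 156 for the ALCAR groups and 23 became 94 for the suspended groups. For ALCAR control against control 1 became 43, for ALCAR suspended against control 152 became 258, and for the interaction 0 became 24. Without normalisation the counts were 20, 19, 2, 0, 21 and 0 in the same order. The causes were not tested. For the named spots, 662 of the other values kept their direction and side of the threshold, 23 lost and 3 gained a call, and none changed sign while called. Signal over background differed between arrays: on 1 array as few as 62 members stood above 2 times its floor.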

Other observations

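Besides R609, another 4 members exceeded 3 times their group's median in both suspended 4 and suspended 5; they were chosen after their values were seen, so no test is given. RG280 had 2491 and 2649 ppm on these arrays and at most 823 ppm on the other suspended arrays. RG054 had 3402 and 4094 ppm, against at most 866 ppm. R057 had 4243 and 2419 ppm, against at most 664 ppm. R490 had 2593 and 2925 ppm, against at most 541 ppm, and would stand at rank 376 without these arrays, outside the range described. The ranks of RG280, RG054 and R057 would become 100, 144 and 263.

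The group with the highest mean share was the control group for 78 members, the ALCAR suspended group for 74, the suspended group for 52 and the ALCAR control group for 36.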
